A study of Mus musculus with 6 samples.

Results

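The clustered histone genes encode the core and linker histones that package newly made DNA. They were taken as every gene on the array whose name starts with Hist1h, Hist2h, Hist3h or Hist4h, and were sorted by name into linker H1, H2A, H2B, H3 and H4. The array carried 54 probes for 49 such genes: 6 for H1, 14 for H2A, 12 for H2B, 8 for H3 and 9 for H4. The brightest probe stood for each gene. A filter for probes well above background on at least 2 arrays kept 48 of the 49 genes, among 22124 genes tested in all. Hist1h1d, a linker H1 gene, was dropped as too dim. RNA came from M-MDSCs (monocytic myeloid-derived suppressor cells), which restrain T cells and are immature, sorted by flow cytometry from bone marrow or lung of C57BL/6 mice. One set of mice received azacytidine, which blocks DNA methyltransferases, plus entinostat, which blocks class I histone deacetylases. The other set, 6 to 8 weeks old per the labels, received vehicle and is called mock. Each of 6 dual-colour Agilent arrays, 3 per tissue, paired a mock RNA from 1 to 2 mice in Cy3 with a treated RNA pooled from 3 to 6 mice in Cy5.

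Dye and treatment cannot be told apart, because the dyes were never exchanged, and tissue and slide cannot be told apart, because each tissue had its own slide. Ratios are log2 of treated over mock, and levels are log2 of the normalised signal of 1 channel. The deposited matrices name the ratio mock over treated, the opposite direction, but hold numbers equal to Cy5 over Cy3, which is treated over mock. Of 9 markers of the sorted cells, all were above background in both tissues. Markers of other cells were present in the RNA of both tissues. For 11 neutrophil markers the summed level was 258000 to 287000 in mock marrow and 9360 to 15900 in mock lung. That of the 9 markers of the sorted cells was 279000 to 293000 in mock marrow and 150000 to 208000 in mock lung. The summed level of 10 lung epithelial markers was 19600 to 36800 in mock lung and 71600 to 110000 in treated lung, against 1070 to 1130 in mock marrow, where 7 of the 10 (Sftpa1, Sftpb, Sftpc, Sftpd, Cdh1, Krt8 and Nkx2-1) were not above background. Precision is limited by there being 3 arrays per tissue.

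Most clustered histone genes are switched on when a cell copies its DNA, so that new histones are ready for new chromatin. Their mRNAs usually end in a short stem-loop, bound by the protein Slbp, in place of a poly(A) tail, and are destroyed when replication stops. Some of these genes also give longer, polyadenylated RNAs that run past the stem-loop. Core histones H2A, H2B, H3 and H4 form the nucleosome, and linker H1 binds the DNA between nucleosomes.

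Where a probe lies decides which of these RNAs it can read, and many copies of a histone gene are almost the same sequence. Of the 48 probes, 28 lay in the gene body, 8 held all or part of the stem-loop and 12 lay further downstream. Of the 12 downstream probes, 7 lay past the end of the RefSeq transcript and 5 (Hist1h2bc, Hist1h2be, Hist1h2bp, Hist1h2bq and Hist2h2be) lay inside a long RefSeq transcript. Among the 8 stem-loop probes, that of Hist1h2ae ran 48 bases past the stem-loop, that of Hist2h2aa1 ran 38, and the others ran 0 to 6. The array design listed more than 1 RefSeq transcript for 15 of the 48. The clearest case was a set of 7 H2A genes (Hist1h2af, Hist1h2ag, Hist1h2ah, Hist1h2ak, Hist1h2an, Hist2h2aa2 and Hist2h2ac) whose probes cover the end of the coding sequence and are linked by an identity of at least 75%. These probes cannot be taken as separate measurements of single genes. The 4 that align end to end with no gap are shown 5′ to 3′ with their mm9 positions. Capitals mark the 10 of 60 positions at which these 4 are not all alike, and each probe ends at the stop codon.
Hist1h2af, chr13:23626113-23626172, plus strand: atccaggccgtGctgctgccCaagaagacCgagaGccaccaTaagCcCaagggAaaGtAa
Hist1h2ak, chr13:21845304-21845363, minus strand: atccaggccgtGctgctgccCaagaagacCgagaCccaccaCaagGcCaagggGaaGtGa
Hist1h2an, chr13:21878695-21878754, minus strand: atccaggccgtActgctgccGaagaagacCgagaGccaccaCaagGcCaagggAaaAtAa
Hist2h2aa2, chr3:96049837-96049896, plus strand: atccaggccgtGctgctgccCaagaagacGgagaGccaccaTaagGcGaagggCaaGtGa
The probe of Hist2h2ab, an H2A gene with a diverged end, is shown for contrast. Its highest identity to any of these 4 was 64.4%.
Hist2h2ab, chr3:96024171-96024230, plus strand: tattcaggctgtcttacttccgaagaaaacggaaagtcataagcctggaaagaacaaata

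The stem-loop itself could be read whole in 6 of the member probes. Its 16 bases were the same in 4 of them, which stood for genes of 3 families, and differed in 2, as shown here 5′ to 3′ with both arms of the stem in capitals.
Hist1h3a, Hist1h3i, Hist2h2aa1 and Hist2h2bb: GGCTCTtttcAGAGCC
Hist1h3g: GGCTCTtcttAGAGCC
Hist1h4m: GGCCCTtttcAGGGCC

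The first question was how the untreated cells of the 2 tissues differed, since mock cells give the background to any response. Clustered histone genes were mostly lower in mock lung than in mock marrow cells. Of 48 members, 28 were lower and 10 higher in lung (limma adjusted p under 0.05; 4 higher with median centring), where 31.3% of all genes tested were lower and 33.8% were higher. The median difference, lung minus marrow, was -0.66 for the members and 0.03 for all genes. Differences of more than 2 log2 units downward were seen for 8 members, 16.7% of them, and for 2.16% of all genes. In these bulk samples, fewer cells of a type and less RNA per cell cannot be told apart.

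Linker H1 genes held the largest difference. Hist1h1a, an H1 subtype of dividing cells, had mock levels of 13.36, 13.64 and 13.18 on the marrow arrays and of 7.78, 7.77 and 7.80 on the lung arrays. The groups did not come near each other. Hist1h1a was 48.9-fold lower in lung, a log2 difference of -5.61 ± 0.11 (SE, n = 3 and 3, limma adjusted p = 5.57e-08, probe at chr13:23855888-23855947 of mm9). Hist1h1e, the H1.4 gene, read 15.38, 15.62 and 15.45 in marrow and 11.51, 11.81 and 11.84 in lung, a difference of -3.76 ± 0.11 (SE, limma adjusted p = 1.84e-07). Hist1h1b, the H1.5 gene, was 3.12-fold lower in lung, with marrow arrays from 11.68 to 11.78 and lung arrays from 10.06 to 10.12. Hist1h1c, the H1.2 gene, did not pass, with marrow arrays at 11.50, 10.94 and 10.78 and lung arrays at 12.06, 11.41 and 11.32. Its probe lies past the end of the RefSeq transcript. The testis-specific Hist1h1t was at 6.73 ± 0.03 in mock marrow (SD, n = 3), where it was not well above background on any array. In mock lung it was 1.14-fold above that dim signal.

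Among H3 genes, Hist2h3c1 stood apart, with mock levels of 15.31, 15.21 and 15.41 in marrow and 9.84, 9.67 and 9.82 in lung. That is a 46.3-fold lower level in lung, a log2 difference of -5.53 ± 0.08 (SE, limma adjusted p = 2.9e-08, probe at chr3:96051073-96051132), although its probe is listed for 3 transcripts. Hist1h3f was lower by -2.50 ± 0.09, Hist1h3c by -1.66 ± 0.09 and Hist1h3g by -1.26 ± 0.13 (log2, SE). In all, 5 of 8 H3 genes were lower in mock lung and 2 were higher. The higher ones were Hist1h3a at 0.65 ± 0.16, read by a stem-loop probe, and Hist2h3c2-ps at 0.33 ± 0.09, read past the end of the RefSeq transcript.

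Of 12 H2B genes, 8 were lower in mock lung and 3 were higher. Hist1h2ba, known as a testis-specific H2B gene, read 14.24, 14.26 and 14.27 in marrow and 10.16, 10.19 and 10.33 in lung, a 16.3-fold difference. Its probe lies in the gene body and was at percentile 98.1 of mock spots in marrow. Whether it also reads other H2B copies was not tested. Hist1h2bm, whose probe is listed for 4 transcripts, read 14.52, 14.56 and 14.42 against 10.94, 10.95 and 11.07, an 11.4-fold difference. Both H2B probes were thus high on every marrow array and low on every lung array. Hist1h2bg was 4.73-fold lower in lung. The 3 H2B genes higher in lung were Hist2h2be at 1.19 ± 0.17, Hist2h2bb at 0.80 ± 0.18 and Hist1h2bc at 0.75 ± 0.24 (log2, SE). Hist1h2bc and Hist2h2be are among 3 clustered genes listed as also giving polyadenylated RNA, and Hist1h1c is the third.

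The 7 alike H2A probes were lower in mock lung by similar amounts, from -1.80 to -1.45. A neighbouring probe gave the opposite sign. The Hist2h2aa1 probe, which begins near the stem-loop and runs 38 bases past it, lies at chr3:96049949-96050008, just downstream of the Hist2h2aa2 coding probe at chr3:96049837-96049896. The Hist2h2aa1 probe read 10.46, 10.05 and 10.19 in mock marrow and 11.60, 11.69 and 11.89 in mock lung, a difference of 1.49 ± 0.12 (SE, limma adjusted p = 2.33e-05). The Hist2h2aa2 probe read 16.20, 16.12 and 16.13 against 14.80, 14.51 and 14.56, a difference of -1.53 ± 0.09 (SE, limma adjusted p = 4.61e-06). So 2 probes of neighbouring positions on chromosome 3 differed in direction, each without overlap between the tissues. Whether the coding probe also reads the other H2A copies was not tested.

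H4 genes differed least by their median, which was 0.07. Of 9, 3 were lower in mock lung and 2 were higher. Hist1h4i was 6.92-fold lower, with marrow arrays at 11.84, 11.83 and 11.24 and lung arrays at 8.77, 8.81 and 8.96, read by a probe past the end of the RefSeq transcript. Hist1h4j and Hist1h4c were lower by -1.01 ± 0.10 and -0.58 ± 0.13 (log2, SE). Hist1h4d was higher by 0.36 ± 0.08 and Hist1h4k by 0.21 ± 0.06, although the Hist1h4k sign turned to -0.26 when both of its probes were averaged.

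By probe position, 21 of the 28 gene-body probes were lower in mock lung and 3 were higher, with a median of -1.48. Of the 12 downstream probes, 5 were lower and 4 higher, with a median of -0.03. Of the 8 stem-loop probes, 2 were lower and 3 higher. The treated cells gave a like picture on the same slides: 29 members were lower in treated lung than in treated marrow, against 29.6% of all genes, and 6 were higher, against 32.0%. The Hist1h1a difference was -6.24 and the Hist2h3c1 difference -5.09 in treated cells.

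**Figure D1:**
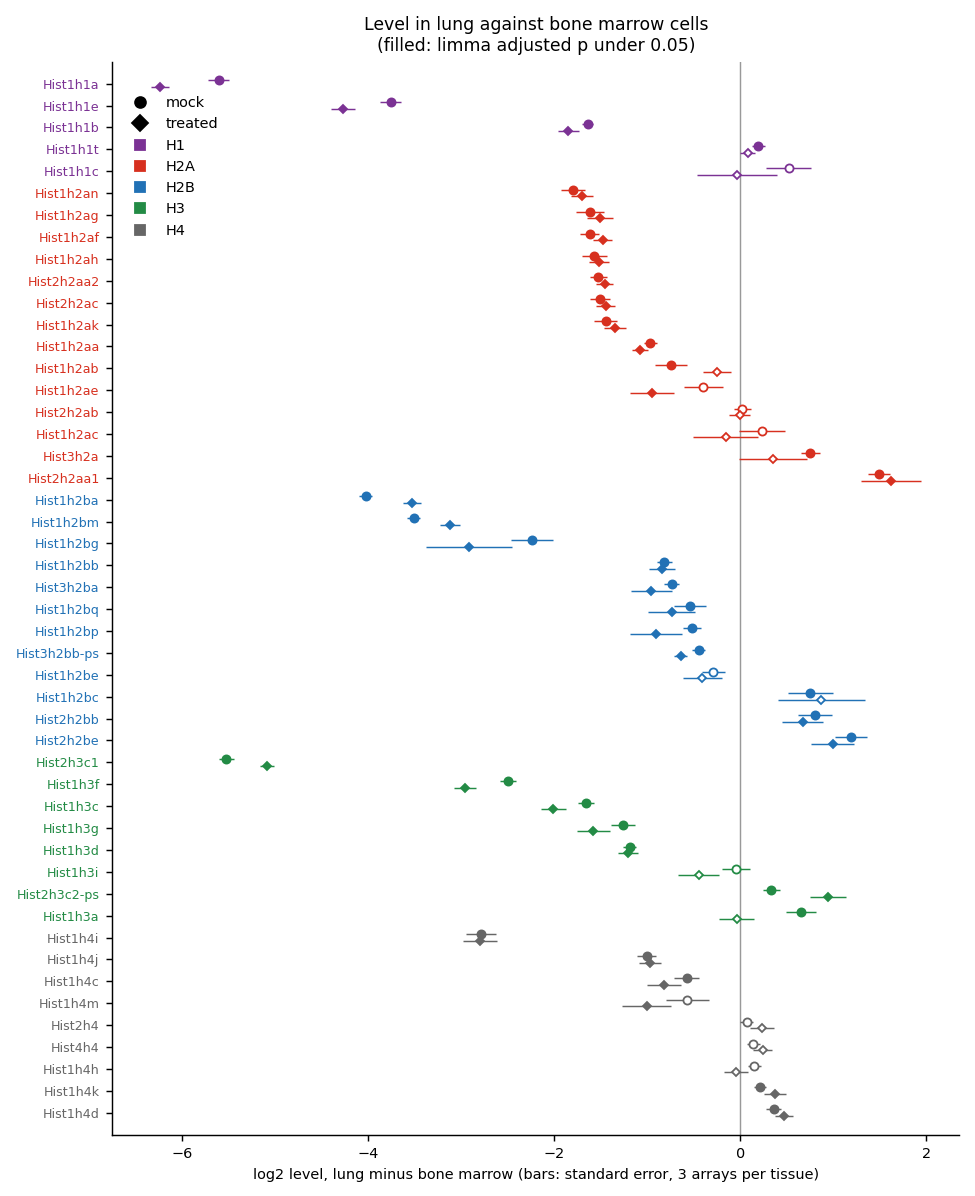
The log2 level in lung minus bone marrow cells (horizontal axis) is drawn for each of 48 clustered histone genes (rows, coloured by family), with circles for mock and diamonds for treated cells and bars for the standard error over 3 arrays per tissue. Among the mock circles, Hist1h1a at -5.61 and Hist2h3c1 at -5.53 lie farthest to the left, and Hist2h2aa1 at 1.49 lies farthest to the right. Among the treated diamonds, Hist1h1a at -6.24 and Hist2h2aa1 at 1.62 lie farthest to each side.

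Genes of the cell cycle moved beside the histone genes between the tissues. For all counts here, the share of all genes was 31.3% lower and 33.8% higher in mock lung. Of 29 S phase genes tested, 26 were lower in mock lung and none was higher by limma, with a median of -1.53. Among them Cdc45, a replication helicase component, was lower by -2.43, the ribonucleotide reductase gene Rrm1 by -2.27, the DNA ligase gene Lig1 by -2.25 and the DNA polymerase delta gene Pold1 by -1.53 (log2). All 20 genes of G2 and M phase were lower, with a median of -2.09, led by Mki67 at -3.64 and Ccna2 at -3.28. Slbp, which binds the stem-loop, was lower by -2.66 ± 0.10 (SE, limma adjusted p = 6.78e-07), and of 19 genes of histone mRNA processing and decay 10 were lower and 1 was higher. Srrt and Cstf2 in that list were lower by -1.87 and -1.02. Of 20 histone chaperone genes 15 were lower and 3 higher, among the lower ones Hjurp at -4.01, Asf1b at -2.84, Anp32e at -2.61 and Supt16h at -1.44. Of 14 replacement and variant histone genes outside the clusters, 9 were lower and 1 higher, with H2afv at -2.92, H2afj at -1.48, H2afy at -1.40 and H2afy2 at -1.35. Other cell types moved with the tissue too, for example with all 10 tested B cell markers higher in mock lung. Of 11 neutrophil markers, 7 were lower in mock lung and none was higher, with a median of -2.31. The part of cell division or of other cell types in the histone differences was not tested.

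The second comparison asked how treated marrow cells differed from mock marrow cells. Changes were small. Of 48 members, 2 rose, against 7.26% of all genes, and 8 fell, against 7.15%. The median was 0.03 for the members and 0.02 for all genes. Of the 8 that fell, 7 were the H2A genes with alike probes, and the other was Hist2h3c1. Both that rose, Hist3h2ba and Hist1h2be, were H2B genes read by downstream probes. None of the 36 members read by other probes rose, so family and probe position cannot be told apart here. No H1 or H4 gene passed in marrow. The main ratios come after loess, which removes a trend of the ratio with brightness within each array. With median centring in its place the median of all genes was 0.20 and no member passed in either direction (13 members at an unadjusted p under 0.05). With scaling between arrays 2 members fell and none rose.

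The H2A set fell on all 3 marrow arrays after loess and turned to values from 0.35 to 0.58 with median centring. On replicates 1, 2 and 3 of marrow the 7 genes lay from -0.64 to -0.43, from -0.42 to -0.29 and from -0.47 to -0.27. All 7 were thus below 0 on each array, and they lay close together. Hist2h2aa2 read -0.53, -0.42 and -0.47, a mean of -0.47 ± 0.05 (SD, n = 3, limma adjusted p = 0.0072), which is 1.38-fold lower in treated cells. Hist1h2an, at -0.64, -0.42 and -0.42, had the largest decrease, at -0.49 ± 0.13 (SD, n = 3, limma adjusted p = 0.0165). Hist1h2af was at -0.46 ± 0.10 and Hist1h2ak at -0.41 ± 0.10. These spots were among the brightest, at or above percentile 99.8 of mock spots in marrow, so they lay near the upper end of the loess curve. The part of that position in the change of sign was not tested. Without any 1 marrow array the call of Hist2h2aa2 alone remained among the 7. With scaling between arrays 1 of the 7 fell.

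No other H2A gene passed in marrow, though 2 of the others were below 0 on all 3 arrays. A second Hist1h2ak probe, at the start of its transcript, read -0.44, -0.43 and -0.46, close to the values of the alike probes. Hist2h2ab, at -0.03, -0.20 and -0.29, did not pass, and it was not above background in treated marrow. Hist1h2ab, read at its stem-loop, had -0.19, -0.23 and -0.22 (limma adjusted p = 0.231), and Hist1h2aa, a testis-specific gene, had 0.19, 0.15 and -0.08. Hist2h2aa1 had -0.07, 0.01 and -1.22, so its low mean of -0.42 rests on replicate 3. Of the 14 H2A genes, 7 fell and 7 did not pass.

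**Figure D2:**
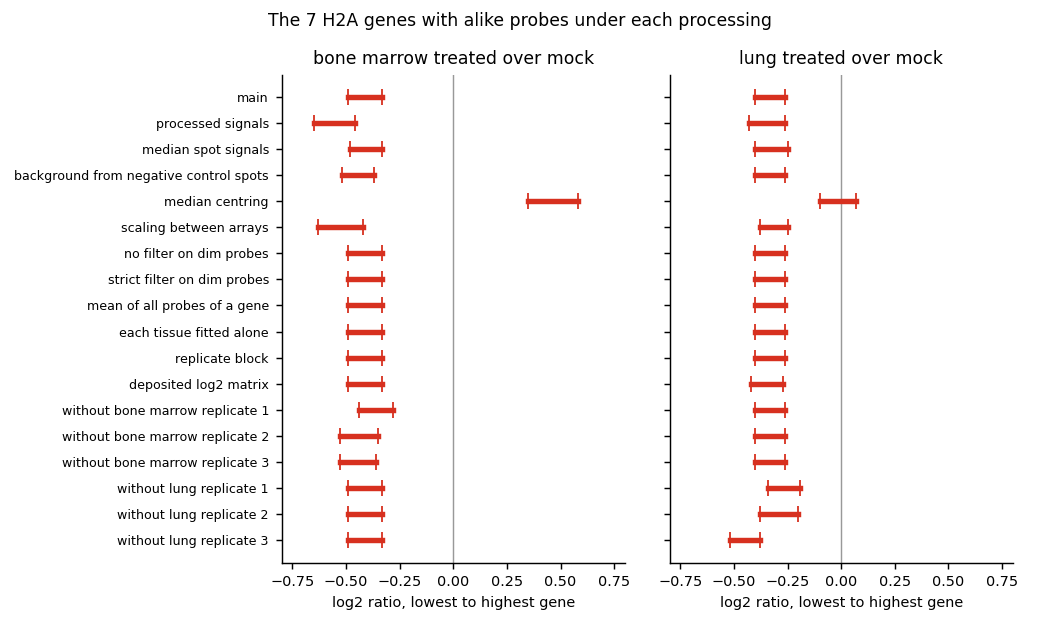
For the 7 H2A genes with alike probes, bars span the lowest to the highest log2 ratio of treated over mock (horizontal axis) under each processing alternative (rows), for bone marrow on the left and lung on the right. Every bar lies below 0 except with median centring, which gave 0.35 to 0.58 in marrow and -0.10 to 0.07 in lung.

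Hist3h2ba, an H2B gene of the small Hist3 cluster on chromosome 11, was the 1 member that rose in both tissues. In marrow it read 1.14, 0.87 and 0.28, all above 0 with replicate 3 the lowest. Its mean was 0.76 ± 0.44 (SD, n = 3, limma adjusted p = 0.0155), or 1.70-fold. In lung it read 0.56, 0.54 and 0.53, a mean of 0.55 ± 0.02 (SD, n = 3, limma adjusted p = 0.0208), or 1.46-fold. The lung arrays scarcely differed, yet the p was no smaller because the spread is shared with the marrow arrays. With median centring the ratio was 1.13 in marrow and 0.76 in lung, neither passing. Its marrow call ended without replicate 1 (limma adjusted p = 0.0591) or 2 (0.0956), and its lung call ended without any 1 lung array (0.0637, 0.0803 and 0.0654). Hist1h2be rose by 0.34 ± 0.22 in marrow, from 0.38, 0.54 and 0.11 (limma adjusted p = 0.0427), a call that ended without marrow replicate 1 or 2 and without lung replicate 2 or 3.

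Hist2h3c1, the H3 gene with the large tissue difference, read -0.30, -0.26 and -0.42 in marrow, a mean of -0.33 ± 0.08 (SD, n = 3, limma adjusted p = 0.018), and turned to 0.46 with median centring. Without any 1 marrow array the call ended. In lung Hist2h3c1 read 0.02, 0.15 and 0.18. Linker H1 genes were uneven in marrow: Hist1h1a read 0.48, -0.05 and 0.68, Hist1h1e 0.27, -0.05 and -0.25, Hist1h1b 0.09, -0.04 and -0.03, and Hist1h1t 0.06, 0.02 and 0.05. None of these H1 genes kept 1 clear sign except Hist1h1t, which lay next to 0.

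Replicate 3 of marrow stood apart for the genes read by the downstream probes. Hist1h1c read 1.02, 1.44 and -0.06. Hist1h2bc, an H2B gene listed with Hist1h1c as giving polyadenylated RNA, read 1.22, 1.37 and -0.06. Hist1h2bg read 0.92, 0.73 and -0.10. In each case replicates 1 and 2 were high and replicate 3 was near 0, and none passed (limma adjusted p = 0.0853, 0.0695 and 0.082). Replicate 3 gave the lowest marrow value for 11 of the 12 genes read downstream (6 of the 7 past the RefSeq transcript and 5 of the 5 inside a long one), for 7 of the 8 read at the stem-loop and for 15 of the 28 read in the gene body. The median of the 12 was 0.45, 0.46 and -0.06 on the arrays, against 0.01, 0.03 and 0.03 for all genes.

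Without marrow replicate 3, 9 members rose and 1 fell, where 2.67% of all genes tested rose. The 9 were Hist1h1c at 1.23, Hist1h2bc at 1.29, Hist3h2ba at 1.00, Hist1h2bg at 0.83, Hist3h2a at 0.49, Hist1h2be and Hist1h2bp at 0.46, Hist1h3i at 0.40 and Hist1h2ac at 0.39. Hist1h3i is read at its stem-loop and the other 8 by downstream probes. The lung-minus-marrow counts changed as well: 11 members were lower in lung without that array, against 3.12% of all genes, and 2 with it. Without marrow replicate 1 no member rose and 1 fell, and without replicate 2 only Hist1h1a rose and 1 fell. What set replicate 3 apart was not tested.

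**Figure D3:**
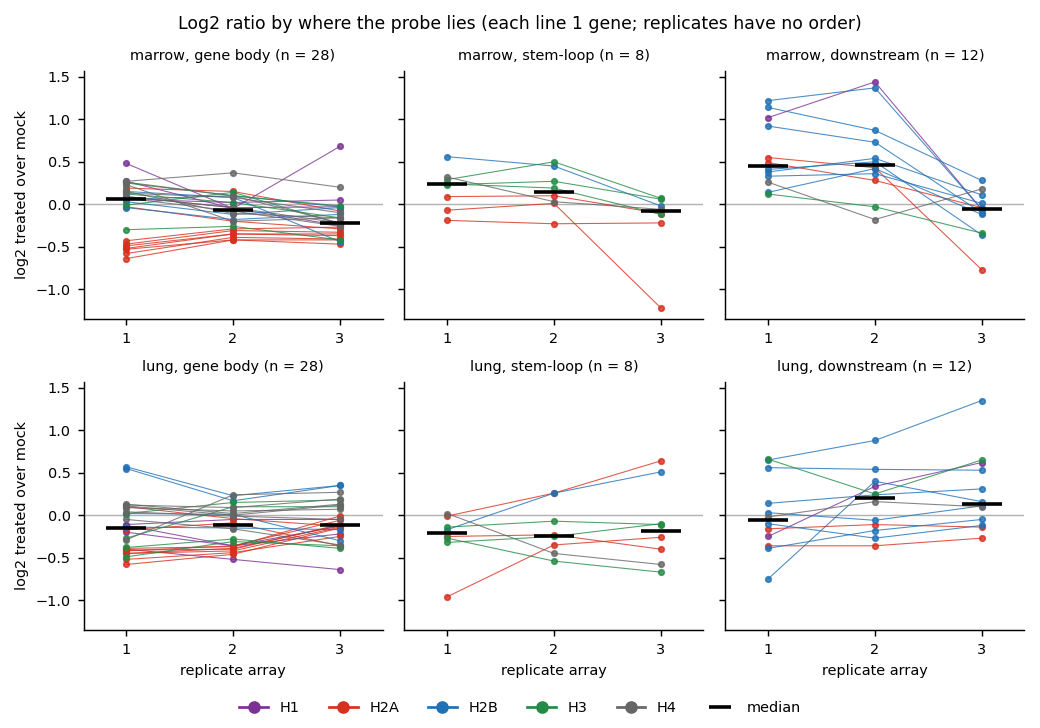
Each thin line joins the log2 ratio of treated over mock (vertical axis) of 1 clustered histone gene on the 3 replicate arrays of a tissue (horizontal axis, no order), split into probes in the gene body, at the stem-loop and further downstream, with black bars for medians. In marrow, the median of genes read downstream was 0.45 and 0.46 on replicates 1 and 2 and -0.06 on replicate 3.

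The third comparison asked the same of lung cells. Of 48 members, 5 rose, against 19.9% of all genes, and 11 fell, against 14.0%. The median was -0.12 for the members and 0.01 for all genes. Members that lay below 0 on all 3 lung arrays made up 52.1%, against 29.2% of all genes. The direction differed by family after loess: of 14 H2A genes 7 fell and none rose, and of 12 H2B genes 4 rose and none fell. Of 8 H3 genes 3 fell and 1 rose, of 5 H1 genes 1 fell, and no H4 gene passed. Among the 11 that fell, 6 were H2A genes with alike probes, which cannot be taken as separate measurements. All 7 alike probes were also below 0 on each lung array, so these counts and shares include them repeatedly. With median centring no member passed. With median centring the median of all genes was 0.12 (4 members at an unadjusted p under 0.05). The scanner software's processed signals gave 9 that fell and none that rose, and scaling between arrays gave 5 that fell and 3 that rose.

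Hist1h2bc had the largest increase in lung. It read 0.65, 0.88 and 1.35, all above 0, a mean of 0.96 ± 0.36 (SD, n = 3, limma adjusted p = 0.026), or 1.94-fold. The call ended without lung replicate 2 (limma adjusted p = 0.083) or 3 (0.115). Hist1h2ba read 0.57, 0.23 and 0.35 and rose by 0.38 ± 0.17 (limma adjusted p = 0.00769). Hist1h2bm read 0.55, 0.17 and 0.35 and rose by 0.35 ± 0.19 (limma adjusted p = 0.0127). On each lung array the ratios of Hist1h2ba and Hist1h2bm lay close together, as their tissue differences did. Whether these probes read the same H2B copies was not tested. The Hist1h2bm call ended without lung replicate 1 or 3, and the Hist1h2ba call was kept without any 1 array. The other H2B gene listed as giving polyadenylated RNA, Hist2h2be, did not pass, with -0.75, 0.40 and 0.16.

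Among H3 genes, Hist1h3a read -0.27, -0.54 and -0.67 in lung, a mean of -0.49 ± 0.20 (SD, n = 3, limma adjusted p = 0.00437), or 1.41-fold lower. Hist1h3c, at -0.49, -0.31 and -0.36, fell by 0.39 on the log2 scale, and Hist1h3f, at -0.38, -0.28 and -0.39, fell by 0.35. The probes of Hist1h3c and Hist1h3f share 78.9% of their overlapping bases. Hist2h3c2-ps, named as a pseudogene on the array and as H3c15 in RefSeq, read 0.66, 0.25 and 0.65 and rose by 0.52 ± 0.24 (SD, n = 3, limma adjusted p = 0.0102). That call ended without lung replicate 3 and with processed signals (limma adjusted p = 0.189). The spots of Hist2h3c2-ps were dim, at percentiles 55.7 to 58.6 of mock spots in lung. These H3 genes therefore lay on both sides of 0, each with 1 sign on all lung arrays, and the 3 that fell were also below 0 with median centring.

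Hist1h1e was the 1 linker H1 gene that passed in lung. It read -0.40, -0.52 and -0.64, a mean of -0.52 ± 0.12 (SD, n = 3, limma adjusted p = 0.00648), or 1.43-fold lower, and -0.30 with median centring. Hist1h1a, at -0.20, -0.36 and -0.22, and Hist1h1b, at -0.12, -0.36 and -0.13, were below 0 on all arrays and did not pass (limma adjusted p = 0.159 and 0.06). Hist1h1c, at -0.25, 0.34 and 0.62, had both signs. Hist1h1t lay from -0.11 to -0.05.

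The alike H2A probes lay below 0 in lung as in marrow, apart from median centring, which gave -0.10 to 0.07. On lung replicates 1, 2 and 3 they lay from -0.58 to -0.39, from -0.46 to -0.36 and from -0.25 to -0.01. Of the 7, 6 fell and Hist1h2ag did not pass (limma adjusted p = 0.0561). Without lung replicate 1 or 2 only 1 of the 7 fell. With each tissue fitted alone 3 of the 7 fell, with processed signals 2, and with scaling between arrays 0. Hist1h2ae, read at its stem-loop, fell by 0.53 ± 0.38, from -0.96, -0.35 and -0.26 (limma adjusted p = 0.0174), and by 1.16 with processed signals. That call ended with each tissue fitted alone (limma adjusted p = 0.0653) and with median centring, where the ratio was -0.4 (0.319). The Hist1h2ae spots were dim, at percentiles 46.2 to 51.3 of treated spots in lung. Hist1h2ab, read at its stem-loop as well, had -0.01, 0.26 and 0.64. The array lists the Hist1h2af coding probe for 2 transcripts.

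No H4 gene passed in lung, where their means ran from -0.34 for Hist1h4m to 0.14 for Hist4h4. The 2 kept probes of Hist1h4i differed: the downstream one gave -0.02, 0.16 and 0.10 in lung, and the one in the gene body gave -0.23, -0.65 and -0.95.

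**Figure D4:**
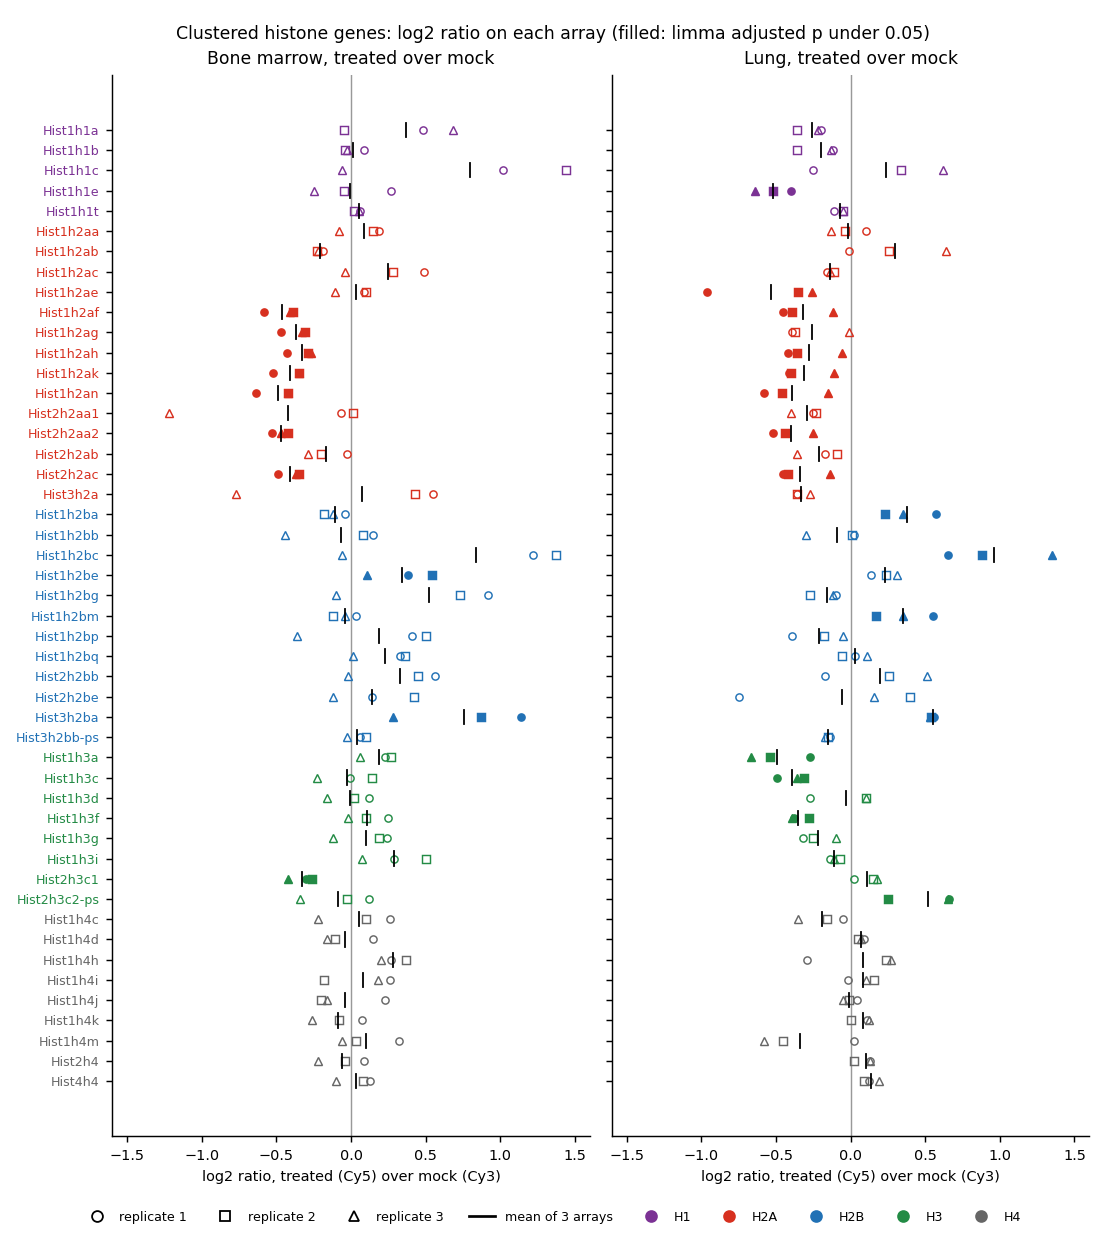
The log2 ratio of treated over mock (horizontal axis) is shown for 48 clustered histone genes (rows, coloured by family) on the 3 bone marrow arrays (left) and the 3 lung arrays (right), with filled symbols where limma's adjusted p was under 0.05 and bars for the means. The H2A genes with alike probes form a tight block below 0 in both tissues, from -0.49 to -0.33 in marrow and from -0.40 to -0.26 in lung, which turned to 0.35 to 0.58 in marrow and -0.10 to 0.07 in lung with median centring.

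The response itself differed between the tissues for 5 members. Of 48, 3 had a higher lung-minus-marrow difference, against 9.79% of all genes, and 2 a lower one, against 5.46%. Hist1h3a, at 0.19 ± 0.11 in marrow and -0.49 ± 0.20 in lung (SD, n = 3), differed by -0.68 ± 0.12 (SE, limma adjusted p = 0.0124). Hist1h3f, at 0.11 ± 0.14 and -0.35 ± 0.06, differed by -0.46 ± 0.10 (SE, limma adjusted p = 0.0214). Hist2h3c1 differed by 0.44 ± 0.09, Hist1h2ba by 0.49 ± 0.11 and Hist2h3c2-ps by 0.60 ± 0.16 (log2, SE, limma adjusted p = 0.0186, 0.0233 and 0.0423). For all 5, the 3 lung arrays did not overlap the 3 marrow arrays. None of the 3 higher calls remained without any 1 marrow array, without lung replicate 3 or with processed signals. The Hist1h3a call ended without marrow replicate 2 and was kept without each of the other arrays. The Hist1h3f call ended without marrow replicate 1 (limma adjusted p = 0.06) or 2 (0.0732), without lung replicate 3 (0.0628) and with scaling between arrays (0.0584). With median centring the differences of Hist1h2ba and Hist2h3c1 turned to -0.01 and -0.13. For H1 all 5 genes had a lung-minus-marrow difference below 0, from -0.63 to -0.11, and none passed.

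Genes that serve the histone genes were also read. For scale, 7.26% of all genes rose and 7.15% fell in marrow, and 19.9% rose and 14.0% fell in lung. Of 19 genes of histone mRNA processing and decay, 1 rose and 2 fell in marrow, and none rose and 3 fell in lung. Zcchc11, a uridylyl transferase gene, was the one that rose in marrow, by 0.71. In lung Casp8ap2, a component of histone locus bodies, fell by 0.29, the exonuclease gene Eri1 by 0.25 and the U7 particle gene Lsm11 by 0.28 on the log2 scale, and Slbp had -0.15 ± 0.05 (SD, n = 3, limma adjusted p = 0.467). Of 10 regulators of histone transcription, 2 fell in marrow, and 1 rose and 3 fell in lung. Pou2f1, the octamer factor Oct-1, fell by 0.23 in marrow and by 0.40 in lung on the log2 scale (limma adjusted p = 0.0416 and 0.0019), and Pou2af1, a B cell coactivator, fell by 1.87 in lung. Nfyc, a subunit of the factor that binds CCAAT boxes, fell by 0.30 in lung, and Nfya, another subunit, rose by 0.37. Daxx and Cabin1, which act in H3.3 deposition, fell in both tissues, Daxx by 0.56 and 0.85 and Cabin1 by 0.59 and 0.56. Npm1, another chaperone gene, rose by 0.75 in marrow. The H3.3 gene H3f3a also fell in both, by 0.52 and 0.67.

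Replication genes and the members had lung medians of opposite sign after loess. Of 29 S phase genes 10 rose by limma, against 19.9% of all genes, and none fell, against 14.0%. Their median was 0.25, and among them were Prim1 at 0.77, Lig1 at 0.76, Pola1 at 0.56, Mcm6 at 0.54 and Pold1 at 0.52. The members had a median of -0.12, which was 0.04 with median centring. Mki67 rose by 0.59, the 1 of 20 genes of G2 and M phase that passed. In marrow 1 S phase gene rose, Rfc4 at 0.45, and no gene of G2 and M phase passed. Marker genes of other cells moved strongly in lung: 11 of 12 macrophage markers and 9 of 10 endothelial markers rose, and 9 of 10 B cell markers fell. Of 11 neutrophil markers 6 rose and none fell. None of the macrophage, neutrophil or B cell markers passed in marrow, but markers of other lists did. In marrow 3 of 10 stem and progenitor, 2 of 10 endothelial and 1 of 10 lung epithelial markers rose, against 7.26% of all genes. Of 9 erythroid markers 2 fell there, and of 9 markers of the sorted cells 1 rose and 2 fell, against 7.15% of all genes falling. The summed level of stem and progenitor markers was 6580 to 7630 in mock marrow and 15400 to 22800 in treated marrow. The summed level of B cell markers was 9200 to 12900 in mock lung and 3010 to 4950 in treated lung. The part of replication or of these other cells in the lung values of the histone genes was not tested.

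Promoters of the histone families were compared for short sequence elements. Of the 48 genes, 42 had a RefSeq promoter window (GRCm38.p6), of which the 250 bases before the start were searched on both strands. The octamer ATTTGCAT was found in 7 of 14 H2A windows and 5 of 9 H2B windows, in none of the H1, H3 or H4 windows, and in 1.6% of all windows. CCAAT was in all 14 H2A, all 9 H2B and all 5 H1 windows, in 4 of 6 H3 windows, in 2 of 8 H4 windows, and in 33.8% of all windows. AAACACA, the H1 box, was in 4 of 5 H1 windows and in 6.25% of all, and TATAAA was in 3 of 5 H1, 7 of 14 H2A, 5 of 9 H2B, 2 of 6 H3 and 4 of 8 H4 windows and in 12.4% of all. Windows of neighbouring genes can overlap, so they are not all separate sequences. The windows of 2 H2B genes are shown 5′ to 3′, ending next to the start, because Hist3h2ba rose in both tissues and Hist1h2bg was 4.73-fold lower in mock lung. Capitals mark the octamer, CCAAT and TATA elements on either strand. The octamer is in the Hist1h2bg window and these letters are not in that of Hist3h2ba.
Hist3h2ba, chr11:58948661-58948910 of GRCm38.p6, plus strand: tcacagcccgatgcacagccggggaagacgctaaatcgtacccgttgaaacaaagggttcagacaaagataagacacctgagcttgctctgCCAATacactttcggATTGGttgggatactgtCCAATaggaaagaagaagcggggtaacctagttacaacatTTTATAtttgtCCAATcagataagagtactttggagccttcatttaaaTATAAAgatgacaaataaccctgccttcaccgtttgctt
Hist1h2bg, chr13:23571150-23571399 of GRCm38.p6, plus strand: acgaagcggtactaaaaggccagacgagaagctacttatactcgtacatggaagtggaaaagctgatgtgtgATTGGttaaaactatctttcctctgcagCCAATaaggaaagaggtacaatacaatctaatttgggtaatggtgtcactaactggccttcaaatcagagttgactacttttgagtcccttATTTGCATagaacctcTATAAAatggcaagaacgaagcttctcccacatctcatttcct

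Some H2A and H2B genes face away from each other and share the stretch between their starts, and their values could be set side by side in 3 pairs. Hist1h2an and Hist1h2bp, with 240 bases between their starts, had marrow ratios of -0.49 and 0.19 and lung ratios of -0.39 and -0.21. Hist1h2ae and Hist1h2bg, with 180 bases between them, had 0.03 and 0.52 in marrow and -0.53 and -0.16 in lung. Hist1h2aa and Hist1h2ba, with 281 bases between them, had 0.09 and -0.11 in marrow and -0.02 and 0.38 in lung. The ratios read for partners were thus not alike. The Hist1h2an probe is of the alike H2A set, and whether the Hist1h2ba probe reads other H2B copies was not tested. These pairs therefore cannot show how genes with a shared stretch respond. Hist1h2aa and Hist1h2ba are both read in the gene body, while in the other pairs the partners are read by probes of different kinds.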

How the data were processed

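RNA of mock cells (Cy3) and treated cells (Cy5) was measured on 6 arrays, 3 per tissue. The deposited spot intensities were made by the scanner software, per the file headers, which also place the probes on mm9. Its log10 ratio of processed signals was deposited beside them. The deposited log2 matrices were made with limma, per the labels' protocols, and served as an alternative. Here mean spot intensities were corrected with normexp (offset 50), normalised by loess within each array and averaged per probe, with control spots left out. Levels of single channels were also scaled between arrays (Aquantile). Kept were probes that at least 2 arrays of a tissue and channel showed well above background (27693 of 39429), and the brightest probe stood for a gene (22124 genes). The brightest probe can be one that reads several gene copies. All 6 arrays entered 1 limma fit (limma 3.58.1, R 4.3.3) with a mean per tissue and 4 residual degrees of freedom, and p-values were adjusted over all genes by Benjamini-Hochberg. A gene passed at an adjusted p under 0.05. The labels call the arrays biological replicates. Where only a bound on a level was available, folds are taken against the gene's own dim signal or the lowest signal well above background, whichever is larger. Sequences came from the array files and, for promoters, from RefSeq.

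The members and lists were chosen with earlier results of these data known. Named were, per family and comparison, up to 4 passing genes per direction with 1 sign on all arrays and the largest ratios, every H1 gene, the listed polyadenylated and testis-specific genes, and up to 4 genes per related list with the smallest p. Other genes were named after their values were seen. Alternatives were processed signals, median spot signals, background from negative control spots, median centring, scaling between arrays, channel quantiles, other filters on dim probes, the mean of all probes, tissues fitted alone, a replicate block, the deposited matrix and leaving out each array. The fit was tested on simulated data: of 200 genes shifted by 1 log2 unit in marrow, 90.5% of them were recovered among 22124 genes.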

Additional observations from a re-analysis of the deposited data

Results flagged for a closer look

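The treatment response differed between lung and marrow, by limma's test of the difference itself, for 5 clustered histone genes. In log2 units, lung minus marrow, the difference was 0.49 for Hist1h2ba, -0.68 for Hist1h3a, -0.46 for Hist1h3f, 0.44 for Hist2h3c1 and 0.60 for Hist2h3c2-ps. Tissue and slide cannot be told apart for any of these 5. Whether the Hist1h2ba probe also reads other H2B copies was not tested.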

How the results depend on the processing

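Median centring in place of loess had the largest effect. With it no member passed in either direction in marrow, in lung or for the difference in response (0 for each count), and the members higher in lung numbered 4 in mock and 3 in treated cells. Signs turned in marrow for Hist1h2af (0.43), Hist1h2ag (0.51), Hist1h2ah (0.58), Hist1h2ak (0.48), Hist1h2an (0.35), Hist2h2aa2 (0.38), Hist2h2ac (0.47) and Hist2h3c1 (0.46), in lung for Hist1h2af (0.01), Hist1h2ah (0.06) and Hist1h2ak (0.02), and for the difference in response for Hist1h2ba (-0.01) and Hist2h3c1 (-0.13). The all-gene median went from 0.023 to 0.2 in marrow and from 0.014 to 0.122 in lung, and the cause was not tested. Scaling between arrays left 0 members higher and 2 lower in marrow, 3 higher and 5 lower in lung, and 1 lower for the difference. Processed signals left 0 higher in lung, and 1 higher and 4 lower for the difference. Background from negative control spots gave 4 higher in marrow and 5 lower for the difference. With the mean of all probes, Hist1h4k turned to -0.26 in mock and -0.14 in treated cells. The replicate block gave 1 member higher in marrow and 5 lower for the difference, but the numbers do not pair the arrays: deviations of same-numbered arrays correlated at 0, 0.116 and 0.047.

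Leaving out 1 array at a time gave 0 to 9 members higher and 1 to 8 lower in marrow, 1 to 6 higher and 6 to 14 lower in lung, and 0 to 3 higher and 1 to 11 lower for the difference. For lung over marrow it gave 8 to 10 higher and 27 to 31 lower in mock cells, and 4 to 6 higher and 27 to 34 lower in treated cells. Without any filter on dim probes, and with a strict one, all 95 called results kept their direction and their call.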

Other observations

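Probes with alike sequences outside the H2A set gave ratios that were close for 1 pair and less so for others. Hist1h4d and Hist1h4j, alike at 95.0% of overlapping bases, differed by at most 0.12 in log2 ratio on any array. The largest difference on an array was 0.41 for Hist1h4c and Hist1h4d, 0.30 for Hist1h4c and Hist1h4j, and 0.26 for Hist1h3c and Hist1h3f. In mock cells Hist1h4d and Hist1h4j differed between tissues in opposite directions, by 0.36 and -1.01, lung minus marrow.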
